A study of Mus musculus with 20 samples.

Results

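Transcripts of 7 tuft cell marker genes were followed in sorted crypt epithelial cells of mice with and without Itgb7. The genes are Pou2f3, Trpm5, Alox5ap, Ltc4s, Ptgs1, Dclk1 and Avil. They were taken by symbol, and the set was chosen with earlier results of these data known. All 7 stood among the 11779 gene entries measured in GFP-low cells. Of the 11746 entries measured in GFP-high cells, 6 were markers of this set, and Ptgs1 was absent from that table. Comparisons between the populations therefore rest on 6 of the 7 genes.

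Tuft cells are rare chemosensory cells of the intestinal epithelium. They sense luminal metabolites of parasites and microbes through a cascade shared with taste receptor cells, and they release interleukin 25, prostaglandins and cysteinyl leukotrienes. In the small intestine these signals act on type 2 innate lymphoid cells, whose interleukin 13 acts back on crypt progenitors and raises the number of tuft and goblet cells. Pou2f3 is the transcription factor without which intestinal tuft cells do not form, and Dclk1 is the marker most used to see them in mouse tissue.

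The samples came from the small intestine of C57BL/6J mice aged 8 weeks, in 4 groups of 5 libraries: GFP-low and GFP-high cells of Itgb7-/- Lgr5-GFP mice (KO), and GFP-low and GFP-high cells of Itgb7+/+ Lgr5-GFP mice (WT). Itgb7 encodes the integrin beta 7 chain, which gut-homing and intraepithelial lymphocytes use to enter and stay in the intestine. All groups carried Lgr5-GFP, a reporter of crypt stem cells, so no group is free of it. Sorted cells were viable, EpCAM+ and negative for CD45, CD31 and TER119. The labels call GFP-high cells stem cells and GFP-low cells transit-amplifying (TA) cells. Whether KO and WT mice were littermates or shared cages is not given in the sources used here. KO mice carried the numbers 2, 3, 4, 5 and 6 and WT mice 1, 3, 6, 7 and 8, and per-library values below follow that order.

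Libraries held between 20900412 and 27838403 counts. All 5 stem cell markers (Lgr5, Olfm4, Ascl2, Smoc2 and Gkn3) fell in GFP-low cells of both genotypes, with median log2 fold changes of -2.64 in KO and -2.55 in WT mice. The cells were sorted by the Lgr5 reporter, so the fall of Lgr5 itself is no independent check. GFP-low cells were not free of mature lineages. All 5 goblet, all 5 Paneth, all 4 measured enteroendocrine and all 4 measured enterocyte markers rose in them in both genotypes. Over all genes tested, 26.2% rose and 24.4% fell in KO mice, and 22% rose and 21.4% fell in WT mice. Itgb7 had no row in either table, so the deletion was not checked here. The defining leukocyte gene Ptprc, which encodes CD45, had no row either, nor did the mast cell genes Cpa3 and Fcer1a. Ptprc is also on the wider tuft list read below, so any tuft cells bearing CD45 fell outside the gate. Of 7 mast cell markers only Kit, which epithelial cells also express, was measured in both populations. Some leukocyte genes were measured despite the CD45- gate: both tables held Gzma, Gzmb and Cd7 of 8 T and intraepithelial lymphocyte markers, Cd68 and Itgam of 8 myeloid markers and Coro1a of 5 pan-leukocyte markers. The summed level of the tuft markers in a bulk library cannot tell apart more tuft cells from more of these transcripts per tuft cell, and this holds for each result below.

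The 6 tuft markers held by both tables varied together among GFP-low libraries, as described further below, and promoter sequence was read for the set. RefSeq windows on GRCm38.p6 were matched for 5 of the 7 genes, as 6 windows, because Dclk1 has a window at each of 2 starts. The 250 bases before each start were searched on both strands for the octamer ATGCAAAT, the element bound by POU-domain factors such as Pou2f3, and for its shortened form ATGCAAA, which lies within the octamer. The octamer was in 0 of the 6 windows, and 1.6% of the 32851 mouse windows searched held it. The shortened form was in 1 of the 6, the window of Avil, against 4.12% of all windows. A match is a description of letters and not a binding site. The Avil window is shown for its 2 matches, in capitals, and both Dclk1 windows are shown because Dclk1 had the largest change between the populations in WT mice. No capitals stand in the Dclk1 windows. The window of Avil is chr10:127000459-127000708, that of the upstream Dclk1 start chr3:55242114-55242363 and that of the internal Dclk1 start chr3:55461478-55461727, all on the plus strand and written 5′ to 3′.
Avil: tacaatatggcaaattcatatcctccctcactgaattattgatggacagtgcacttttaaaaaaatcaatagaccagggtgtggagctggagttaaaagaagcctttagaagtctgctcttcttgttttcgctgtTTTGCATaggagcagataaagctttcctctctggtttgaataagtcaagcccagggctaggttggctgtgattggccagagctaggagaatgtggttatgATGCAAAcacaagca
Dclk1 upstream start: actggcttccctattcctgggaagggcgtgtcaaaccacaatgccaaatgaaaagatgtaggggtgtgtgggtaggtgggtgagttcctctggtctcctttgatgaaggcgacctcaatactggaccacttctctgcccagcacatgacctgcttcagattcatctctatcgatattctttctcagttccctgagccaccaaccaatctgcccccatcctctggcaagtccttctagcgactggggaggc
Dclk1 internal start: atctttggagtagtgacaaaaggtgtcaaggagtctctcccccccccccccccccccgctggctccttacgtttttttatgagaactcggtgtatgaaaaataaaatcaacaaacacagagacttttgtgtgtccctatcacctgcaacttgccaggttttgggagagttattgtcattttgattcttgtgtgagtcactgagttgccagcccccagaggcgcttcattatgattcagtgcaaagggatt

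In Avil the first match, TTTGCAT, is ATGCAAA on the opposite strand, 115 to 109 bases before the start, and the second lies 15 to 9 bases before it. The upstream Dclk1 window ends just before the first base of the gene as GENCODE M21 annotates it, and the internal window lies within the gene.

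Tuft marker transcripts were more abundant in GFP-low than in GFP-high cells. In KO mice 5 of the 6 tested markers rose in GFP-low cells, by 3.59-fold for Trpm5 to 10.2-fold for Alox5ap, and Pou2f3 did not pass. In WT mice all 6 rose, by 2.12-fold for Pou2f3 to 5.56-fold for Dclk1. Among all 11282 genes tested in KO mice 26.2% rose and 24.4% fell, and among all 11281 tested in WT mice 22% rose and 21.4% fell. The median log2 fold change of the 6 markers was 2.34 in KO and 1.68 in WT mice, and that of all genes was -0.01 in each. Fold changes and adjusted p-values throughout come from edgeR's quasi-likelihood test with Benjamini-Hochberg adjustment over all genes tested, and a gene passed at an adjusted p under 0.05. The error after each log2 fold change is its standard error (SE).

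**Figure D1:**
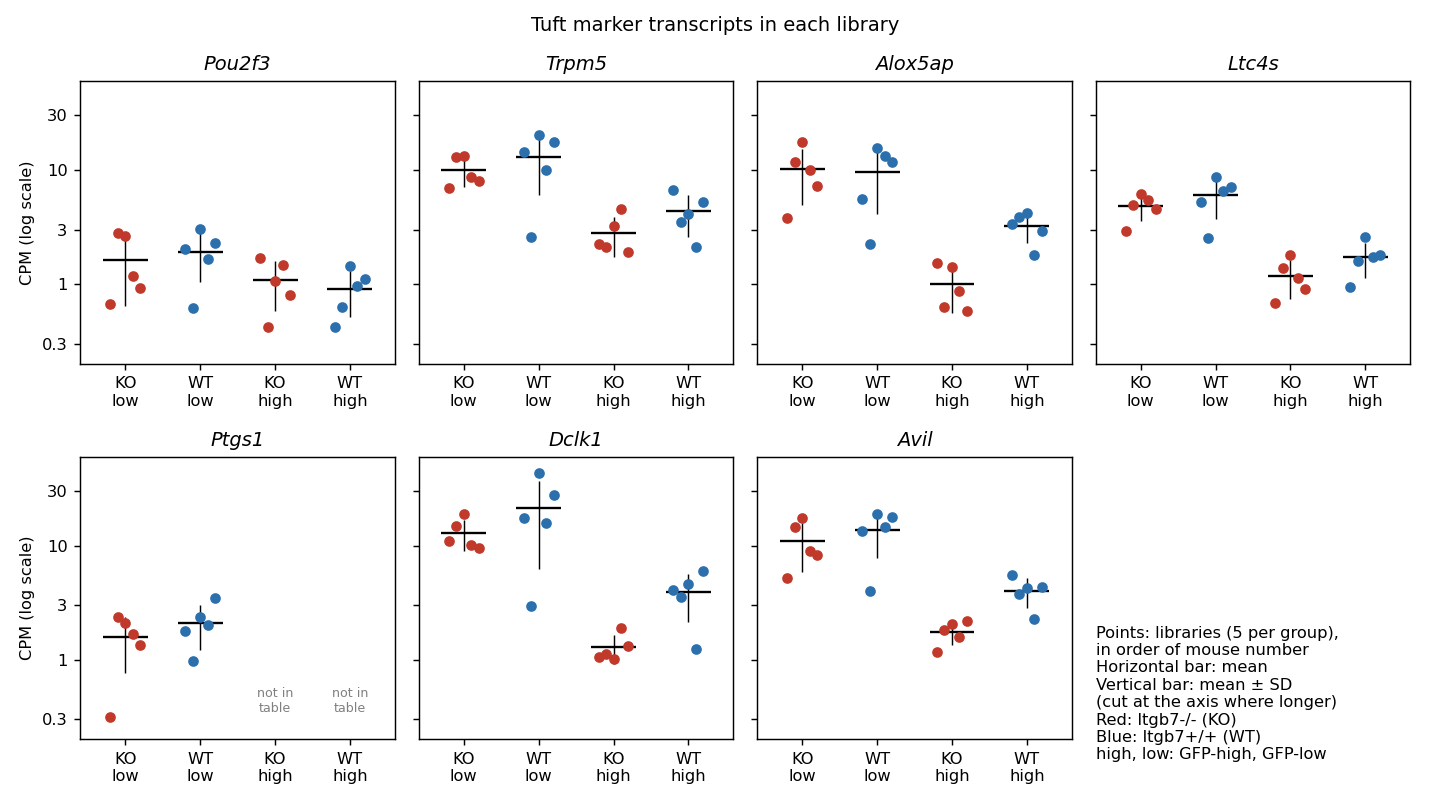
Level of each tuft marker in each of the 20 libraries, in CPM (counts scaled to the size of the library) on a log axis, by group. Points are libraries in order of mouse number, the horizontal bar is the group mean and the vertical bar the SD over 5 libraries. Group means are higher in GFP-low than in GFP-high cells for each of the 6 markers with both, and the WT GFP-low library of mouse 3 lies lowest in its group in each panel.

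Pou2f3, the octamer-binding transcription factor that specifies tuft cells (chr9:43123939-43210369, minus strand), was among the least abundant. In GFP-low cells it had 0.673, 2.80, 2.62, 1.16 and 0.918 CPM in KO mice and 2.02, 0.610, 3.02, 1.66 and 2.29 CPM in WT mice. In GFP-high cells it had 1.69, 0.419, 1.05, 1.46 and 0.808 CPM in KO mice and 0.424, 0.623, 1.44, 0.965 and 1.10 CPM in WT mice. The populations overlapped in both genotypes, and all 4 groups overlapped one another. GFP-low exceeded GFP-high cells of the same mouse in 3 of 5 KO mice and 4 of 5 WT mice. The log2 fold change of GFP-low over GFP-high was 0.59 ± 0.44 in KO mice (adjusted p = 0.281) and 1.08 ± 0.41 in WT mice (adjusted p = 0.0479, edgeR). The WT call was lost in 8 of the 10 fits that left out 1 library, with adjusted p between 0.0579 and 0.128 in those 8. It was kept when WT mouse 6 lost its GFP-high or WT mouse 3 its GFP-low library. Counts behind these values were small: a library with 10 counts of Pou2f3 has a Poisson interval of 4.8 to 18.4 counts at 95% confidence, for counting error only.

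Trpm5, the calcium-activated cation channel at the end of the taste-type cascade (chr7:143069153-143094642, minus strand), was higher in GFP-low cells. Its levels in GFP-low cells were 7.00, 12.9, 13.3, 8.74 and 7.95 CPM in KO mice and 14.3, 2.56, 20.3, 10.1 and 17.5 CPM in WT mice. Its levels in GFP-high cells were 2.25, 2.10, 3.21, 4.53 and 1.91 CPM in KO mice and 6.65, 3.52, 4.13, 2.10 and 5.18 CPM in WT mice. Every KO GFP-low library stood above every KO GFP-high library. In WT mice 4 of the 5 GFP-low libraries did so, and the GFP-low library of WT mouse 3 fell within the GFP-high range. The log2 fold change was 1.85 ± 0.27 in KO mice (adjusted p = 6.75e-05) and 1.59 ± 0.44 in WT mice (adjusted p = 0.0108). Within single mice the ratio of GFP-low to GFP-high was 1.93 to 6.16 in KO and 0.729 to 4.92 in WT mice.

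The eicosanoid genes Alox5ap and Ltc4s act one after the other in leukotriene synthesis. Alox5ap encodes the protein that presents arachidonic acid to 5-lipoxygenase (chr5:149264767-149288153, plus strand). It had 3.77, 11.6, 17.7, 10.1 and 7.25 CPM in GFP-low cells of KO mice and 5.60, 2.26, 15.5, 13.1 and 11.8 CPM in GFP-low cells of WT mice. In GFP-high cells the values were 1.53, 0.629, 1.41, 0.861 and 0.582 CPM in KO mice and 3.35, 3.88, 4.17, 1.80 and 2.91 CPM in WT mice. The KO populations did not overlap, while the WT populations did through the GFP-low library of mouse 3. GFP-low exceeded GFP-high by a log2 fold change of 3.35 ± 0.40 in KO mice (adjusted p = 1.35e-05) and 1.59 ± 0.42 in WT mice (adjusted p = 0.0087).

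Ltc4s encodes leukotriene C4 synthase, which joins leukotriene A4 to glutathione (chr11:50236461-50238616, minus strand). GFP-low cells held 2.92, 4.90, 6.19, 5.45 and 4.55 CPM in KO mice and 5.27, 2.502, 8.74, 6.53 and 7.00 CPM in WT mice. GFP-high cells held 0.683, 1.38, 1.80, 1.12 and 0.905 CPM in KO mice and 0.932, 1.58, 2.56, 1.73 and 1.81 CPM in WT mice. Separation between the populations was full in KO mice, and in WT mice the GFP-low library of mouse 3 lay just below the highest GFP-high library. The log2 fold change was 2.04 ± 0.28 in KO mice (adjusted p = 4.72e-05) and 1.80 ± 0.33 in WT mice (adjusted p = 0.000885). All 10 mice had more Ltc4s in GFP-low than in GFP-high cells, by 3.44 to 5.02 times in KO and 1.59 to 5.65 times in WT mice. Of its exon bases 26.4% are shared with the antisense gene Gm26542, and 13.3% of those of Alox5ap with the antisense gene Gm19719. With strand not given, reads from such stretches cannot be told apart, and the share was under 5% for each other marker.

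Ptgs1, which encodes cyclooxygenase 1, the enzyme that opens prostaglandin synthesis (chr2:36230426-36252272, plus strand), could be described in GFP-low cells alone. It had 0.314, 2.38, 2.10, 1.68 and 1.36 CPM in KO mice and 1.79, 0.977, 2.35, 2.01 and 3.44 CPM in WT mice. KO mouse 2 stood below all the others, and its value rests on 7 counts, with a Poisson interval of 2.8 to 14.4 counts. The genotypes otherwise overlapped. The table of GFP-high cells held no entry with a mean below 17.0 counts per library, and the table of GFP-low cells none below 16.8.

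Dclk1, a microtubule-associated protein kinase (chr3:55242364-55539068, plus strand), had the largest WT change of the set. Its GFP-low levels were 10.99, 14.7, 19.0, 10.1 and 9.57 CPM in KO mice and 17.4, 2.93, 43.6, 15.7 and 27.6 CPM in WT mice. Its GFP-high levels were 1.05, 1.13, 1.01, 1.91 and 1.33 CPM in KO mice and 4.11, 3.52, 4.57, 1.23 and 5.97 CPM in WT mice. Even the lowest KO GFP-low library, that of mouse 6, stood far above the highest KO GFP-high library. The WT GFP-low libraries were far apart, 14.9-fold between mice 6 and 3, and mouse 3 lay among the GFP-high libraries. The log2 fold change was 3.32 ± 0.25 in KO mice (adjusted p = 2.51e-07) and 2.48 ± 0.55 in WT mice (adjusted p = 0.00328).

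Avil encodes advillin, an actin-binding protein of the villin family (chr10:127000709-127020994, plus strand). It had 5.203, 14.4, 17.5, 9.02 and 8.30 CPM in GFP-low cells of KO mice and 13.5, 3.97, 19.1, 14.6 and 17.6 CPM in GFP-low cells of WT mice. GFP-high cells had 1.17, 1.80, 2.06, 1.57 and 2.20 CPM in KO mice and 5.55, 3.74, 4.25, 2.26 and 4.36 CPM in WT mice. Again the KO populations were apart, and in WT mice only the GFP-low library of mouse 3 fell within the GFP-high range. The log2 fold change was 2.63 ± 0.31 in KO mice (adjusted p = 1.21e-05) and 1.78 ± 0.35 in WT mice (adjusted p = 0.0015). All 10 mice had more Avil in GFP-low than in GFP-high cells, by 3.78 to 8.48 times in KO and 1.06 to 6.46 times in WT mice.

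Across the set, 5 of 6 markers had no overlap between GFP-low and GFP-high libraries in KO mice, against 18.1% of all 11284 genes higher without overlap. In WT mice 0 of 6 were without overlap, against 15% of all genes, and for each of the 6 markers 4 of 5 GFP-low libraries stood above all GFP-high libraries. The GFP-low library of WT mouse 3 was the exception each time. With both libraries of that mouse left out, a choice made after seeing the data, 6 of 6 markers still passed in WT mice.

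**Figure D2:**
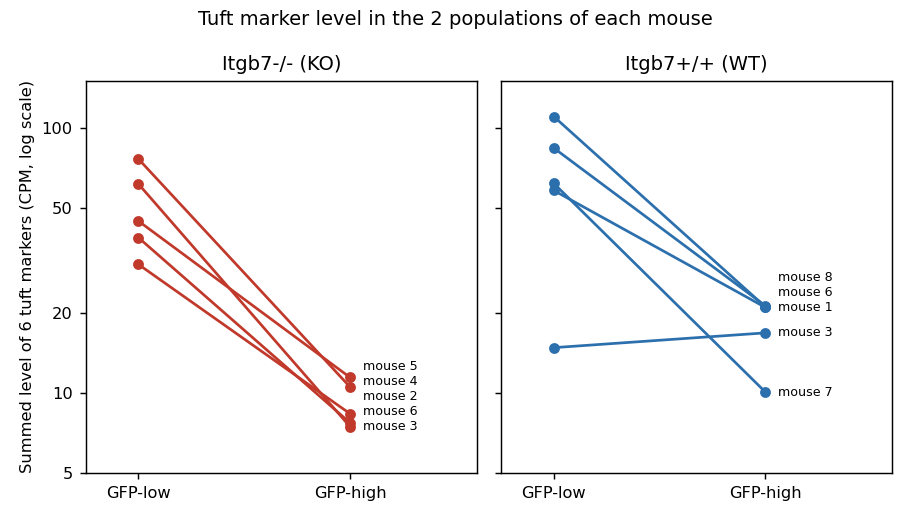
Summed level of the 6 tuft markers held by both tables (CPM, log axis) in GFP-low and GFP-high cells of each mouse, with a line joining the 2 libraries of a mouse. All 5 KO mice and 4 of 5 WT mice run downward, and WT mouse 3 has 14.8 CPM in GFP-low and 16.9 CPM in GFP-high cells.

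The summed level of the 6 markers had a lowest, median and highest value of 30.6, 44.5 and 76.3 CPM in KO GFP-low cells, and of 14.8, 61.7 and 110.2 CPM in WT GFP-low cells. In GFP-high cells these were 7.47, 8.36 and 11.5 CPM in KO mice, and 10.1, 21.02 and 21.3 CPM in WT mice. WT mouse 3 had the lowest sum of all GFP-low libraries, and KO mouse 2 the next lowest. WT mouse 7 had the lowest sum of the WT GFP-high libraries and was the one that fell within the KO range. The GFP-low library of WT mouse 3 also had the highest Paneth marker sum of all libraries, 205200 CPM, while that of WT mouse 8 had 199800 CPM with a tuft sum of 83.8 CPM. The same WT mouse 3 library had the highest enterocyte sum of all libraries, 3025 CPM. Its goblet and enteroendocrine sums, 22400 and 899 CPM, were the lowest of its group. The GFP-low library of KO mouse 2 had the highest enterocyte sum of its own group, 1813 CPM. Its goblet, enteroendocrine and Paneth sums, 20330, 740 and 20750 CPM, were the lowest of that group. The parts of these other cells in the low tuft levels of these libraries were not tested.

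Loss of Itgb7 gave no tuft marker that passed the threshold in either population. In GFP-high cells 3 markers, Alox5ap, Avil and Dclk1, were lower in KO than in WT mice at an unadjusted p under 0.05, by 2.27-fold to 3.21-fold, and the other 3 were not. In GFP-low cells the 7 markers had log2 fold changes between -0.74 and 0.05, and 0 of 7 had an unadjusted p under 0.05, against 6.32% of all genes.

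**Figure D3:**
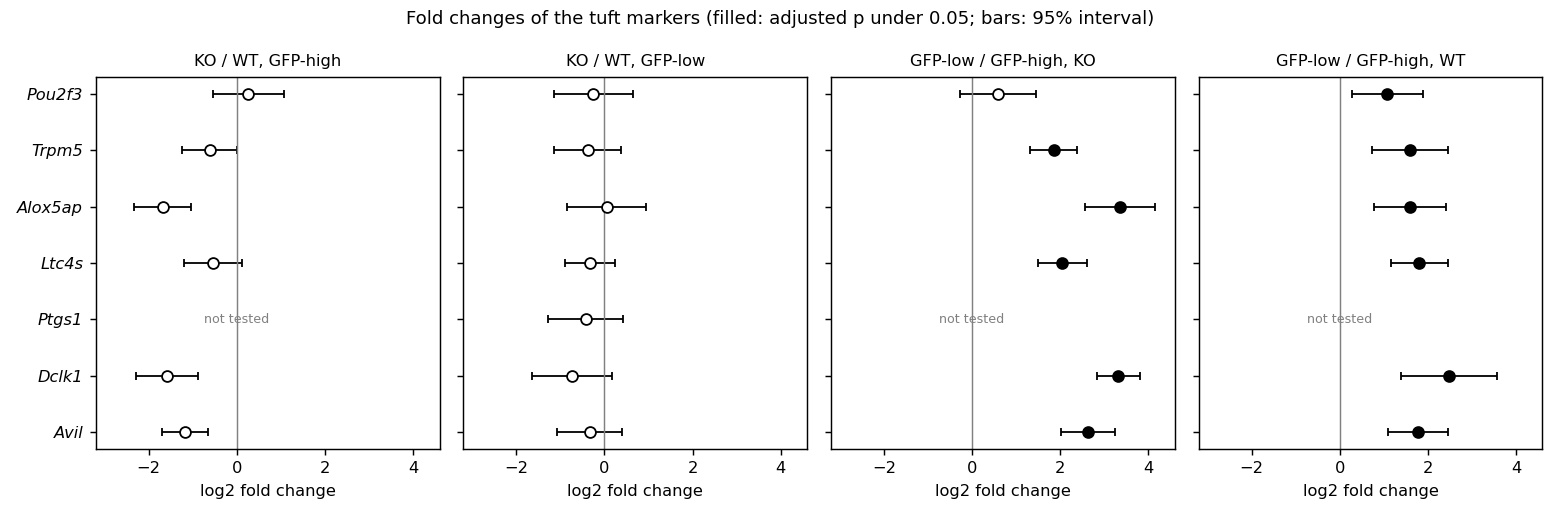
Log2 fold change of each tuft marker in 4 comparisons, from edgeR, with bars of a 95% interval that takes a normal quantile of the SE. Filled points have an adjusted p under 0.05: 5 of 6 markers in GFP-low over GFP-high cells of KO mice, 6 of 6 in WT mice, and 0 in either comparison of KO over WT, where the points of Alox5ap, Avil and Dclk1 in GFP-high cells lie farthest below 0.

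In GFP-high cells 0 of 6 markers passed, and 0% of the 11745 genes tested did so. Alox5ap averaged 1.001 ± 0.440 CPM in KO and 3.22 ± 0.933 CPM in WT mice (SD, n = 5 each), a log2 fold change of -1.68 ± 0.33 (unadjusted p = 0.000181, adjusted p = 0.163, edgeR). Avil averaged 1.76 ± 0.411 CPM in KO and 4.03 ± 1.19 CPM in WT mice, a log2 fold change of -1.18 ± 0.27 (unadjusted p = 0.000559, adjusted p = 0.167, edgeR). For both genes every KO library stood below every WT library. Such separation, KO below WT, was found for 2 of 6 markers and for 0.919% of all genes.

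Dclk1 averaged 1.28 ± 0.370 CPM in KO and 3.88 ± 1.73 CPM in WT GFP-high cells, a log2 fold change of -1.58 ± 0.36 (unadjusted p = 0.000606, adjusted p = 0.167, edgeR). Its groups overlapped, because WT mouse 7, at 1.23 CPM, lay within the KO range. Trpm5 averaged 2.80 ± 1.09 CPM in KO and 4.32 ± 1.72 CPM in WT mice. The 95% interval of its log2 fold change was -1.24 to 0.00, while its unadjusted p was 0.0717 (edgeR). Ltc4s averaged 1.18 ± 0.434 CPM in KO and 1.72 ± 0.583 CPM in WT mice, with an interval of -1.20 to 0.11. Pou2f3 averaged 1.09 ± 0.506 CPM in KO and 0.911 ± 0.400 CPM in WT mice, with an interval of -0.55 to 1.06. The tuft transcription factor thus stood on the other side of 0 from the other 5 markers, with an interval that includes changes both ways.

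The 3 markers at an unadjusted p under 0.05, all lower in KO, compare with 4.98% of all genes lower at that p. The median log2 fold change of the 6 markers was -0.90, and that of all genes 0.01. DESeq2's Wald test on the same libraries passed Alox5ap (adjusted p = 0.00117), Dclk1 (0.00461) and Avil (0.00764), 3 of 6 markers against 1.23% of all genes, or 0.809% when only genes lower in KO are counted. Whether these genes pass thus depends on the test chosen. Left out one library at a time, edgeR's log2 fold changes ran from -1.89 to -1.53 for Alox5ap, from -1.81 to -1.37 for Dclk1 and from -1.34 to -1.04 for Avil, and none of the 3 passed in any of the 10 fits.

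Markers of other cell types were read in the same comparison of KO with WT GFP-high cells, in which 48.6% of all genes had a log2 fold change below 0. All 4 measured enteroendocrine markers had log2 fold changes below 0, with a median of -0.96, and their summed level had a median of 112 CPM (range 107 to 194) in KO and 249.5 CPM (range 106 to 428) in WT mice. All 5 goblet markers were below 0 too, with a median of -0.63 and summed levels of 1210 to 2490 CPM in KO and 1459 to 3515 CPM in WT mice. None of these 9 genes passed the threshold. Of 5 Paneth markers 4 were below 0, with a median of -0.17. Paneth marker sums had medians of 25110 CPM in KO and 27870 CPM in WT mice, and stem marker sums 3688 CPM in KO and 3365 CPM in WT mice. WT mouse 7 had the lowest tuft, enteroendocrine, goblet and Paneth sums of the WT GFP-high libraries. Lymphocyte markers stood on the other side: all 4 measured had log2 fold changes above 0, with a median of 1.01, and none passed. The summed level of the 3 held by both tables had a median of 23.7 CPM (range 4.98 to 38.6) in KO and 11.2 CPM (range 1.66 to 19.9) in WT mice, above the median tuft sum in KO and below it in WT mice. All 3 measured myeloid markers were above 0 too, with a median of 0.22, and Fcer1g had the largest of these values, 1.58 ± 0.52 (unadjusted p = 0.00922, adjusted p = 0.304, edgeR). The parts of other secretory cells and of leukocytes in the tuft values of these libraries were not tested.

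**Figure D4:**
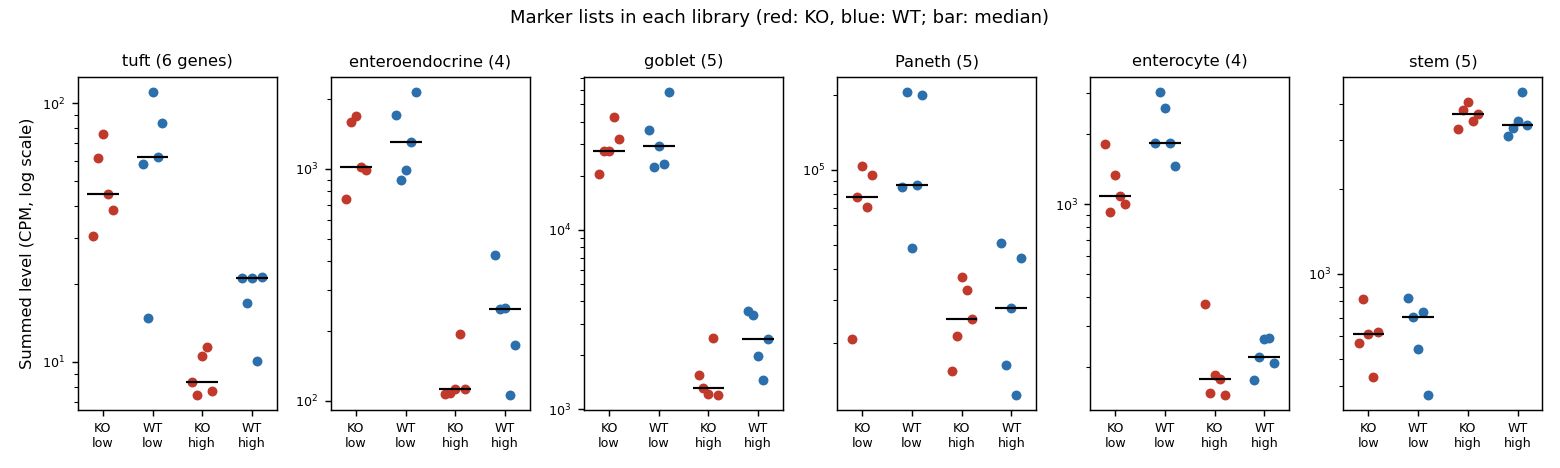
Summed level of the tuft markers and of 5 other marker lists in each library (CPM, log axis), with the number of genes per list in brackets and a bar at the group median. In GFP-high cells the KO points of the tuft and enteroendocrine lists have medians of 8.36 and 112 CPM, and the WT points 21.02 and 249.5 CPM. Each panel has its own axis range.

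In GFP-low cells 0 of 7 markers passed, against 0.00849% of the 11778 genes tested. Dclk1 averaged 12.9 ± 3.99 CPM in KO and 21.5 ± 15.2 CPM in WT mice (SD, n = 5 each), and its log2 fold change of -0.74 ± 0.46 had a 95% interval of -1.65 to 0.17. That value moved with single WT libraries: it was -0.31 without WT mouse 6 and -1.03 without WT mouse 3. Alox5ap averaged 10.1 ± 5.19 CPM in KO and 9.66 ± 5.52 CPM in WT mice, with an interval of -0.84 to 0.94. Avil averaged 10.9 ± 4.97 CPM in KO and 13.8 ± 5.91 CPM in WT mice, with an interval of -1.07 to 0.39. KO and WT libraries overlapped for each of the 7 markers, while 0.441% of all genes were lower and 0.679% higher in KO without overlap. For these 3 genes WT mouse 3 stood below every KO library.

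Trpm5 averaged 9.98 ± 2.91 CPM in KO and 12.9 ± 6.95 CPM in WT GFP-low cells, with a log2 fold change of -0.38 ± 0.39. Ltc4s averaged 4.80 ± 1.22 CPM in KO and 6.01 ± 2.32 CPM in WT mice, with a log2 fold change of -0.33 ± 0.29. Ptgs1 averaged 1.57 ± 0.802 CPM in KO and 2.11 ± 0.898 CPM in WT mice, with a log2 fold change of -0.43 ± 0.44. Pou2f3 averaged 1.63 ± 0.998 CPM in KO and 1.92 ± 0.885 CPM in WT mice, with a log2 fold change of -0.25 ± 0.45. Their adjusted p-values from edgeR lay between 0.889 and 0.959. The interval of each of the 7 included changes in both directions, and that of Dclk1 reached -1.65 and so took in the GFP-high value of -1.58. DESeq2 passed 12 of 11779 genes in this comparison, 0.102%, none of them a tuft marker.

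The KO effect in GFP-low minus that in GFP-high cells was fitted over all 20 libraries. None of the 6 markers passed, nor did any of 11284 genes, 0%, while 353 genes, 3.13%, had an unadjusted p under 0.05. Alox5ap had the smallest p of the 6, with a difference of 1.75 ± 0.62 on the log2 scale (unadjusted p = 0.01, adjusted p = 1, edgeR). Avil had a difference of 0.85 ± 0.49 and Dclk1 of 0.84 ± 0.65. The KO effects in the populations were therefore not shown to differ. DESeq2 also passed 0 genes, with 359 at an unadjusted p under 0.05. Both fits treat the GFP-low and GFP-high libraries of a mouse as independent. With mouse as a block, edgeR again passed 0 genes, with 776 at an unadjusted p under 0.05.

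Per kilobase of exon, the leukotriene genes led the set. The length used is that of all annotated exons of a gene, 15.3 kb for Dclk1 and 1.01 kb for Ltc4s, so a gene read mainly from short transcripts has a low value. In KO GFP-low cells Alox5ap had 7.10 ± 3.66, Ltc4s 4.73 ± 1.21 and Avil 3.21 ± 1.46 CPM per kb, followed by Trpm5 with 1.56 ± 0.456, Dclk1 with 0.842 ± 0.261, Pou2f3 with 0.529 ± 0.323 and Ptgs1 with 0.403 ± 0.207 (SD, n = 5). WT GFP-low cells had the same order, with 6.80 ± 3.89 CPM per kb for Alox5ap and 0.544 ± 0.231 for Ptgs1. In both genotypes Avil and Trpm5 were farther apart than either of their SDs. In KO mice this also held for Ltc4s and Avil and for Trpm5 and Dclk1. The other neighbours in this order differed by less than the larger of their SDs. The SDs are over libraries in which the markers varied together, so they do not measure how firm the order is within a library.

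In GFP-high cells the order changed between genotypes. KO mice had Ltc4s first at 1.16 ± 0.428 CPM per kb, then Alox5ap at 0.705 ± 0.310, Avil at 0.518 ± 0.121, Trpm5 at 0.437 ± 0.170, Pou2f3 at 0.352 ± 0.164 and Dclk1 at 0.0839 ± 0.0242. WT mice had Alox5ap first at 2.27 ± 0.657 CPM per kb, then Ltc4s at 1.70 ± 0.575, Avil at 1.19 ± 0.351, Trpm5 at 0.674 ± 0.269, Pou2f3 at 0.295 ± 0.130 and Dclk1 at 0.254 ± 0.113. The first pair differed by less than the larger SD in WT and by slightly more in KO mice. Pou2f3 and Dclk1 were level within their SDs in WT mice, whereas in KO mice Pou2f3 stood above Dclk1 by more than either SD.

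Among libraries of the same group, the markers moved together in GFP-low cells. Over the 10 GFP-low libraries, after removal of each group's mean, Pearson's r between the log2 levels of marker pairs ran from 0.821 to 0.973, with a median of 0.886 over 15 pairs. Over the 10 GFP-high libraries it ran from -0.447 to 0.753, with a median of 0.121. The GFP-high levels rest on 10 to 157 counts per library. Without the GFP-low library of WT mouse 3, pairs in GFP-low cells had a median r of 0.757, and without KO mouse 2 as well a median of 0.805 and a lowest value of 0.474. Libraries of one group share no animal but share their sort gate, so these values are a description.

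**Figure D5:**
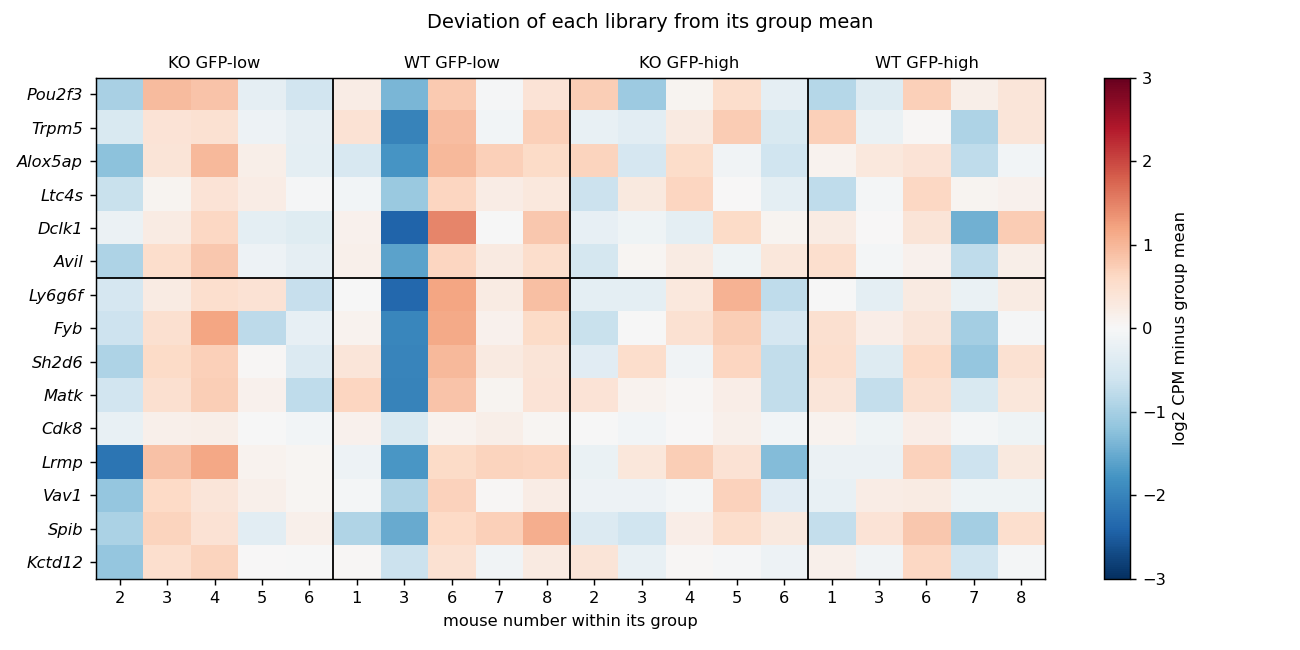
Deviation of each library from its group mean (log2 CPM, red above and blue below) for the 6 tuft markers above the line and, below it, 9 of the 10 other genes whose pattern was most like theirs. Columns are libraries by group and mouse number. The GFP-low libraries of WT mouse 3 and KO mouse 2 are blue in nearly every row, and those of WT mouse 6 and KO mouse 4 are red.

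The genes outside the set with the most similar pattern were ranked by Pearson's r with the mean deviation of the 6 markers over 20 libraries. Of the 10 most similar genes 9 are given here. The first was Ly6g6f, a Ly6 family gene, with r = 0.904. It was followed by the adaptor Fyb (0.902), the SH2-domain gene Sh2d6 (0.892) and the kinase Matk (0.875). Next came the Mediator kinase Cdk8 (0.845), Lrmp (0.841), the guanine nucleotide exchange factor Vav1 (0.811), the Ets factor Spib (0.803) and Kctd12 (0.794). Of the 10, 8 belonged to a wider list of 95 tuft-associated genes, the exceptions being Cdk8 and Lrmp. Of the 11284 genes held by both tables, 57 were on that list. Without the GFP-low library of WT mouse 3 the same 10 genes had r between 0.644 and 0.844, and 4 of them (Fyb, Kctd12, Lrmp and Sh2d6) stayed among the 10 most similar. Without KO mouse 2 as well, r ran from 0.51 to 0.849 and 2 of the 10 (Fyb and Kctd12) stayed. Each marker set against the mean of the other 5 had r between 0.669 for Ltc4s and 0.852 for Trpm5. Without the GFP-low library of WT mouse 3 these values ran from 0.403 for Ltc4s to 0.707 for Avil. Without that of KO mouse 2 as well they ran from 0.254 for Ltc4s to 0.754 for Dclk1.

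The wider list of 95 genes named as tuft genes from prior knowledge was read by role, without the 7 markers. It too was chosen with earlier results of these data known. Both tables held 57 of them, 15 were in the GFP-low table alone, 1 in the GFP-high table alone and 22 in neither. In GFP-low over GFP-high cells 32 of 57 rose and 6 fell in KO mice, with a median log2 fold change of 0.65, and 33 rose and 5 fell in WT mice, with a median of 0.67. Over all genes 26.2% rose and 24.4% fell in KO and 22% rose and 21.4% fell in WT mice, and the counts by role below stand beside these same shares. Over these 57 genes the change was smaller in the median than that of the 6 markers. The 15 genes in the GFP-low table alone are outside these medians. Genes too low in GFP-high cells for that table could not be compared. Taste transduction was mostly below the depth of the GFP-high table: of 12 genes only Itpr3 and Rgs2 were tested in both, and Plcb2, Gng13, Tas1r3, Ffar3 and Rgs13 were in the GFP-low table alone.

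Of 4 other transcription factor genes, Spib rose by 2.76 ± 0.33 on the log2 scale in KO and 2.14 ± 0.51 in WT mice. Atoh1, the master regulator of secretory cells, rose by 2.00 ± 0.34 in KO and 2.52 ± 0.42 in WT mice. Sox9, which is high in crypt base progenitors, fell in GFP-low cells, with -1.66 ± 0.10 in KO and -1.21 ± 0.15 in WT mice. Runx1 did not pass in either genotype. In the taste group Rgs2, a regulator of G-protein signalling, rose by 3.10 ± 0.28 in KO and 2.63 ± 0.34 in WT mice. Itpr3, the inositol trisphosphate receptor of the taste cascade, was at -0.17 ± 0.09 in KO mice, where it did not pass, and at -0.35 ± 0.11 in WT mice, where it fell.

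Of 3 other eicosanoid genes, Ggt1, a gamma-glutamyl transferase that acts on leukotriene C4 and is also found on absorptive epithelia, rose by 3.15 ± 0.38 in KO and 4.95 ± 0.40 in WT mice. Pla2g4a, the cytosolic phospholipase A2 that frees arachidonic acid, moved the opposite way, with -1.08 ± 0.18 in KO and -1.30 ± 0.12 in WT mice, both past the threshold. Pla2g16 did not pass in either. These 3 genes therefore did not move as a block, while the markers Alox5ap and Ltc4s rose in both genotypes. Alox5, Hpgds and Ptgs1 were in the GFP-low table alone and could not be compared. In GFP-high cells Pla2g4a averaged 25.25 CPM in KO and 22.47 CPM in WT mice. Pla2g16 averaged 44.32 CPM in KO and 42.7 CPM in WT mice, and both stood above the mean of each of the 6 markers there.

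Over all genes 26.2% rose in KO and 22% in WT mice. Of 10 genes listed as cytoskeletal, 8 rose and 1 fell in each genotype. Among them were Espn (2.42 ± 0.19 in KO, 2.08 ± 0.30 in WT), Kctd12 (1.69 ± 0.29 and 1.62 ± 0.25, in that order), Krt8 (1.38 ± 0.10 and 1.16 ± 0.11) and Vil1 (0.80 ± 0.08 and 0.78 ± 0.09). Krt8 and Vil1 are expressed across the epithelium, and Kctd12 encodes a subunit of GABA-B receptors rather than a cytoskeletal protein. Of 11 signalling genes 8 rose and 1 fell in KO mice, and 9 rose and 1 fell in WT mice, against the same shares of all genes. Sh2d6 rose by 2.77 ± 0.34 in KO and 2.08 ± 0.45 in WT mice. Vav1 rose by 1.31 ± 0.29 in KO and 1.28 ± 0.25 in WT mice, and the phosphatase gene Ptpn6 by 0.60 ± 0.16 in KO and 0.62 ± 0.13 in WT mice.

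The list placed 6 tested genes under the type 2 circuit, a grouping not tested here. Of these, the interleukin 13 receptor chain Il13ra1 rose by 1.39 ± 0.11 in KO and 1.27 ± 0.17 in WT mice. Il4ra, the chain it pairs with, rose by 0.93 ± 0.12 in KO and 0.97 ± 0.22 in WT mice. Both are expressed in epithelial cells other than tuft cells. Cd24a also rose in WT mice (0.49 ± 0.19), and in KO mice had 0.29 ± 0.16 and did not pass. Stat6, which transmits the signal of these receptors, fell in KO mice (-0.22 ± 0.08) and at -0.24 ± 0.10 did not pass in WT mice. Il25 and Chat had no row in either table. Among 21 remaining signature genes 10 rose and 1 fell in KO mice, and 9 rose and 0 fell in WT mice, against 26.2% of all genes that rose in KO and 22% in WT mice. Those with the smallest p in WT mice were Fam221a (1.18 ± 0.17), Reep5 (2.01 ± 0.31), Bpgm (0.76 ± 0.12) and 1810046K07Rik (1.77 ± 0.31). Ly6g6f, which had the largest change of this role in WT mice (2.30 ± 0.48), was not among them.

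Between genotypes, 0 of 58 wider-list genes passed in GFP-high cells and 0 of 72 in GFP-low cells. In GFP-high cells 36 of 58 had a log2 fold change of KO over WT below 0, with a median of -0.10, against 48.6% of all genes below 0, and at an unadjusted p under 0.05 9 were lower in KO and 3 higher, against 4.98% and 4.81% of all genes. Among these were Sh2d6 (-1.05 ± 0.35, adjusted p = 0.314) and Rgs2 (-0.81 ± 0.33, adjusted p = 0.433, edgeR), both lower in KO, and Ggt1 (1.08 ± 0.50, adjusted p = 0.506), which was higher. In GFP-low cells 48 of 72 were below 0, against 50.8% of all genes, with a median of -0.12, and 3 were lower and 1 higher at an unadjusted p under 0.05, against 3.39% and 2.93% of all genes. The interaction passed 0 of 57. All genes of the list were read in the same libraries, so the counts below 0 are not counts of independent results.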

How the data were processed

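RNA sequencing libraries were grouped by the genotype and cell population in the labels. For each population there was 1 table, in which the authors deposited expected counts by gene, not normalized. Per the submitters' processing notes, TopHat2, Bowtie2, RSEM and build mm10 were used; versions, roles and strand were not given in the sources used here. Expected counts were rounded to whole counts, since 13.7% of values were not whole. Between populations, 11284 genes held by both tables were used, without entries that shared a name (30 in the GFP-low and 34 in the GFP-high table) or carried a date as a name (17 and 16).

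edgeR 4.0.16 (R 4.3.3) gave the main tests: TMM factors, filterByExpr with a minimum count of 10, quasi-likelihood test, Benjamini-Hochberg adjustment, threshold 0.05, no block, only the compared groups in a fit and all 20 libraries for the interaction. DESeq2 1.42.0, other scalings, no filter, 1 fit over all libraries, the replicate block and leaving out each library were alternatives. The steps were tested on simulated data. CPM in the text were scaled over all 20 libraries by TMM, and log2 CPM carried a prior count of 2.

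GFP-low and GFP-high libraries with the same number and genotype deviated together, and each correlated best with its own number: r was 0.201 to 0.435 in KO and 0.169 to 0.625 in WT mice. The numbers were therefore read as mice. Numbers 3 and 6, shared between genotypes, had r between -0.105 and -0.077 and pair nothing. P-values assume that each number is a separate mouse; where this fails they measure only the spread between libraries. Every pair of libraries within a group differed by more than sampling noise, with a chi-square per gene of at least 18.9.

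The 7 markers and all gene lists were chosen with earlier results of these data known. Named genes were the 7 markers, up to 4 genes of each role with the smallest p in WT GFP-low over GFP-high cells, and the 10 genes most like the markers, 1 of which is not reported here. Positions and exon lengths are from GENCODE M21 on GRCm38, and promoters from RefSeq on GRCm38.p6.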

Additional observations from a re-analysis of the deposited data

How the results depend on the processing

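Of the counts of markers passing, those between populations held under each scaling, test, filter and fit tried, apart from Pou2f3 in WT mice: leaving out 1 library gave 5 to 6 of 6, scaling by library totals 5 (Pou2f3 adjusted p = 0.138) and 1 fit over 20 libraries 5 (0.0534). With the replicate block 5 of 6 still passed in KO mice and 6 of 6 in WT mice. In GFP-high cells, KO over WT passed 0 of 6 markers and 0 genes in edgeR, against 3 and 145 with DESeq2 and 1 (Alox5ap) and 118 with the replicate block, which leaves 1 residual degree of freedom and pairs no mice. Leaving out 1 library gave 0 to 1 genes. In GFP-low cells 1 gene passed, against 12 with DESeq2, 36 with the replicate block and 1 to 2 without 1 library. Directions that turned were all of values that did not pass. With the replicate block these were Pou2f3 in GFP-high cells (-0.71), and Avil (0.25), Trpm5 (0.33), Ptgs1 (0.19) and Pou2f3 (0.10) in GFP-low cells, all KO over WT, while Dclk1 in GFP-low cells was -0.14. Without 1 library, Alox5ap in GFP-low cells ran from -0.26 to 0.29, and Trpm5 in the interaction from -0.02 to 0.49. Runx1 in WT GFP-low over GFP-high cells was -0.16 with library totals. The cause was not tested. Library totals brought the median of all genes for GFP-low over GFP-high to -0.27 in KO and -0.37 in WT mice. With TMM it was -0.01 in each. Library totals split the calls into 1777 higher and 4737 lower in KO and 1188 and 4892 in WT mice. With TMM the calls were 2954 and 2748 in KO and 2478 and 2416 in WT mice. The 5 other markers rose in both genotypes under both scalings. The calls of Cd24a in WT and Stat6 in KO mice were each lost in 8 of 10 fits without 1 library. With library totals Ptpn6 passed in neither KO (0.33, adjusted p = 0.087) nor WT mice (0.27, adjusted p = 0.205, edgeR). Cd24a in WT mice was then at 0.1 (adjusted p = 0.591, edgeR). The other way, Itpr3 in KO, Pla2g16 in both genotypes and Stat6 in WT mice passed as lower under that scaling. The tables hold no gene with a mean under 16.8 counts per library, so genes below that depth were not analysed here.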

Other observations

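Of the wider tuft gene list, 15 genes were held by the table of GFP-low cells alone, and their KO over WT comparison is given here as values. None of the 15 passed or had an unadjusted p under 0.05 in edgeR. Of the 15 log2 fold changes 13 were below 0, against 50.8% of all genes in that comparison, with a median of -0.30. These genes were read in the same libraries, so their signs are not 15 independent results. Plcb2, the phospholipase of the taste cascade, averaged 2.79 ± 1.67 CPM in KO and 3.42 ± 1.52 CPM in WT mice (SD, n = 5 each). Gng13, the G-protein gamma chain of that cascade, averaged 1.14 ± 0.563 CPM in KO and 1.73 ± 1.03 CPM in WT mice. Alox5, the lipoxygenase that Alox5ap serves, averaged 2.82 ± 1.12 CPM in KO and 3.62 ± 2.41 CPM in WT mice, and Hpgds, a prostaglandin D synthase, 2.37 ± 1.24 CPM in KO and 2.65 ± 1.16 CPM in WT mice. The ends of the range were Inpp5d at -0.76 ± 0.44 and the fatty acid receptor Ffar3 at 0.82 ± 0.47, both named after their values were seen. Groups overlapped for each gene given here with its levels.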
